A study of Mus musculus with 16 samples.

Results

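The loss of Nr4a1 was examined in adipose progenitors of visceral fat (VAT), the precursors from which new adipocytes arise. All 4 libraries labelled as Nr4a1 knockout (KO) visceral progenitors were set against all 4 labelled as wild-type (WT) visceral progenitors, which together are 8 of the 16 RNA sequencing libraries in the series. Per the labels, the KO genotype is B6;129S2-Nr4a1tm1Jmi/J, the WT genotype is wild type, both carry the strain label C57BL/6J, and all mice were 4 weeks old. The allele is present in every cell of the animal, so effects within the progenitors and effects of other cells on them cannot be told apart, and neither can genotype and any remaining 129S2 strain background. Sex, litter and the markers used to sort the cells are not stated in the labels, although the column names carry the word MACS. The labels call the libraries biological replicates without saying whether each came from its own animal, and p-values therefore measure the spread among these libraries only, which may be technical. The other 8 libraries, 4 KO and 4 WT from subcutaneous fat (SAT), entered the fit and are used where the depots are compared. KO and WT without a depot name stand for the visceral libraries below.

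Nr4a1 encodes an orphan nuclear receptor of the NR4A family, which also holds Nr4a2 and Nr4a3. Many cell types switch the family on within minutes of a growth factor, stress or hormone signal, as immediate early genes, and the receptors bind DNA as monomers at a site called NBRE. Fat progenitors stay mostly out of the cell cycle in the tissue. When they are recruited they first divide, and then turn on an adipocyte programme of transcription factors, lipid droplet proteins and lipid synthesis enzymes.

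Total counts per library were 35761196 to 43984232 in KO and 42383156 to 46293781 in WT, and 16842 genes passed the filter on low counts. Levels are given as CPM, a gene's counts per 1000000 counts of the library after TMM scaling. Changes are log2 fold changes, KO over WT, with their SE. Adjusted p is the Benjamini-Hochberg adjusted value of edgeR's quasi-likelihood test over all tested genes, and a gene was called at an adjusted p under 0.05. The 4 KO libraries lay between 1.611 and 52.87 on the first principal component of the visceral libraries, and the 4 WT libraries between -49.71 and -5.165, with 33.81% of the variance. Among the visceral libraries KO replicate 4 had the lowest mean correlation with its own group, 0.981. The progenitor markers Pdgfra, Pdgfrb, Ly6a, Cd34, Itgb1 and Thy1 stood at 105.3 to 926 CPM in every visceral library. Dlk1 and Cd24a, also progenitor markers, were lower, at 8.83 to 22.8 CPM and 4.90 to 26.2 CPM. The endothelial marker Pecam1 stood at 1.12 to 2.23 CPM and the leukocyte marker Ptprc at 9.13 to 15.1 CPM. Not all markers of other cell types were low. The smooth muscle markers Acta2 and Myh11 stood above all these progenitor markers, at 1411 to 2123 CPM and 1056 to 1657 CPM. The pericyte marker Rgs5 was at 602 to 1042 CPM and Kcnj8, of the same list, at 56.2 to 84.5 CPM. The mesothelial marker Upk3b was at 291 to 622 CPM. Summed levels of such markers are given below.

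Epididymal transcripts set 3 libraries apart. Summed over Lcn5, Lcn6, Crisp1, Rnase10, Adam7 and Cst8, genes of the sperm-storing duct that lies against gonadal fat, there were 69, 61, 3653 and 12320 counts in KO, against 33, 7343, 44 and 33 counts in WT. KO replicates 3 and 4 and WT replicate 2 were therefore left out in a further fit, chosen after the data were seen, which leaves 2 KO and 3 WT libraries. Calls are said below to hold or to be lost without epididymal libraries. Each named call that is said below to be lost without single libraries was also lost in that fit, except those of Postn, Wnt2b, Insig1, Trem2 and Ighm.

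Nr4a1 itself (mm10 chromosome 15, 101254269 to 101274795) was at 297, 327, 304 and 307 CPM in KO, against 1649, 1432, 1481 and 1581 CPM in WT. The groups lay far apart, and Nr4a1 fell by 2.31 ± 0.08 in log2 terms (adjusted p = 5.53e-12). The deposited counts are per gene, so which exons the remaining reads cover was not examined. Nr4a2 (chromosome 2, 57106830 to 57124003) was at 216, 206, 179 and 178 CPM in KO, against 157, 143, 126 and 138 CPM in WT, with no overlap, and rose by 0.47 ± 0.12 (adjusted p = 0.035). That call was lost without KO replicate 1 or 2 or WT replicate 2, 3 or 4 (adjusted p from 0.0776 to 0.111). Nr4a3 (chromosome 4, 48045153 to 48086447) was at 226, 256, 179.6 and 162 CPM in KO, against 219, 172, 146 and 155 CPM in WT, overlapping groups, and was not called (adjusted p = 0.503).

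Over all tested genes, 690 were called, 4.1%: 478 higher in KO (2.84%) and 212 lower (1.26%). The increases were the larger changes, with a median of 1.02 and 249 genes at 2-fold or more. Decreases had a median of -0.44, and 24 reached 2-fold. The median over all 16842 tested genes was -0.0043. Every KO library lay above every WT library for 449 of the 478 genes called higher, and below for 195 of the 212 called lower. Over all tested genes, KO lay wholly above WT for 7.02% and wholly below for 6.72%. The calls were made on the same libraries, so this separation adds no further support to them. At an unadjusted p under 0.05 there were 2923 genes. When each visceral library was left out in turn, 266 of the higher and 64 of the lower calls stayed in all 8 fits. The number of lower calls dropped to 85 without KO replicate 4, 95 without WT replicate 1, 116 without WT replicate 4, 119 without WT replicate 2, 126 without WT replicate 3 and 127 without KO replicate 2. Without epididymal libraries 204 genes were higher and 78 lower, among them 194 of the 478 and 42 of the 212.

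The most extreme folds came from few libraries or low levels. Of 16 called genes with a log2 fold change of 3 or more in size, 13 were higher and 3 lower, 12 averaged under 5 CPM and 8 overlapped between the groups. The following were chosen after their values were seen. Lcn8, a lipocalin of the epididymis, was at 0.954, 0.814, 0.458 and 0.492 CPM in KO, against 0.824, 127, 1.31 and 0.992 CPM in WT, high in WT replicate 2 only. Ces5a, an epididymal esterase, was at 0.183, 0.506, 13.3 and 26.7 CPM in KO, against 0.0434, 0.374, 0.139 and 0.311 CPM in WT, and Cd52 at 3.55, 2.57, 21.1 and 58.9 CPM in KO, against 2.75, 2.93, 1.98 and 2.84 CPM in WT, both high in KO replicates 3 and 4. The libraries high for these 3 genes are the 3 with epididymal transcripts. Gm15446 on chromosome 5 was at 7.71, 6.597, 6.82 and 6.31 CPM in KO, against 0.0434, 0.0208, 0.0198 and 0.0389 CPM in WT, apart in every library.

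**Figure D1:**
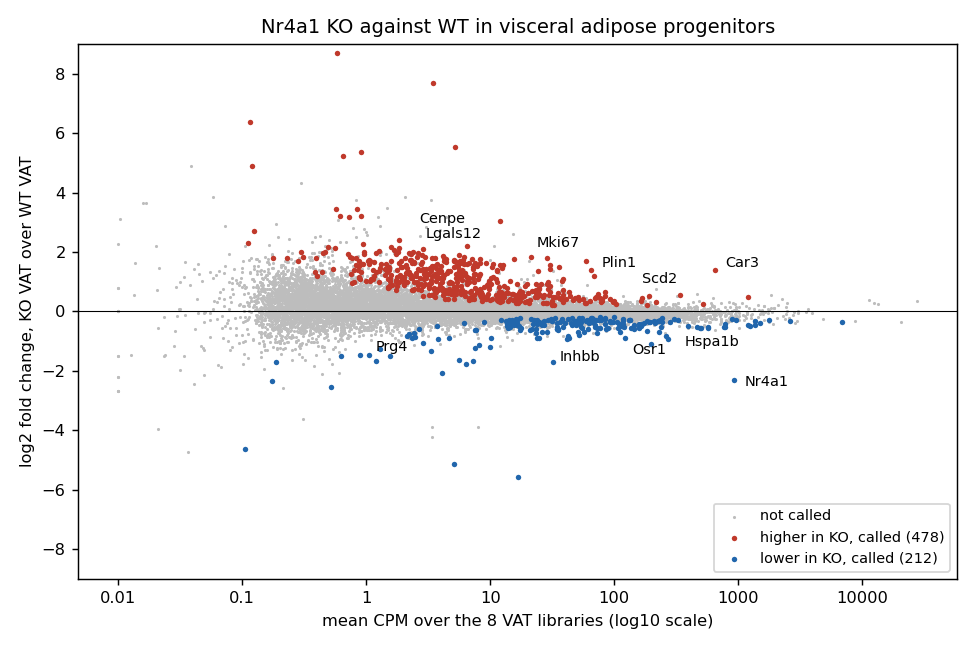
Each point is 1 of 16842 tested genes, with its mean CPM over the 8 visceral libraries on a log10 axis (levels under 0.01 drawn at 0.01) and its log2 fold change, KO over WT; red genes were called higher in KO (478), blue lower (212). Most called genes with a 2-fold change or more are increases, Cenpe, Mki67 and Lgals12 among them, and Nr4a1 is the abundant gene far below 0.

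In KO, the broadest increase was in cell division genes. They held 142 of the 478 higher calls, from 278 tested members of the division lists. Of the 278, 145 were called in either direction (52.2%, against 4.1% of all tested genes). Among mitotic cyclins, kinases and activators of the anaphase-promoting complex, 20 of 28 rose and none fell (median 1.40). The count was 19 to 21 when 1 library was left out. Cdk1, the kinase that drives entry into mitosis (chromosome 10, 69335146 to 69352938), was at 11.02, 14.9, 14.7 and 15.1 CPM in KO, against 4.08, 4.09, 4.63 and 5.12 CPM in WT. KO lay above WT throughout, the lowest KO library being replicate 1, and Cdk1 rose by 1.63 ± 0.14 (adjusted p = 3.71e-06). Its partner cyclin A2, Ccna2 (chromosome 3, 36564865 to 36572150), was at 13.2, 15.7, 19.2 and 15.6 CPM in KO, against 5.44, 5.11, 4.79 and 5.796 CPM in WT, again without overlap (rose by 1.59 ± 0.14, adjusted p = 3.95e-06). Plk1, a kinase of spindle assembly (chromosome 7, 122159439 to 122169873), rose by 1.48 ± 0.14 (adjusted p = 8.61e-06), and Pbk, a mitotic kinase, by 1.74 ± 0.16 (adjusted p = 6.74e-06). Ube2c, the ubiquitin-conjugating enzyme of the anaphase-promoting complex, rose by 1.71 ± 0.18 (adjusted p = 2.45e-05).

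Kinetochores attach chromosomes to the spindle, and 28 of 36 of their genes rose with none lower (median 1.28). Cenpe, a kinetochore motor (chromosome 3, 135212537 to 135273611), was at 8.97, 7.63, 9.52 and 9.43 CPM in KO, against 3.100, 2.51, 2.197 and 1.85 CPM in WT. It had the largest increase, as a fold change, among the separated protein-coding genes with at least 5 CPM and rose by 1.88 ± 0.21 (adjusted p = 3.99e-05). Spc25 and Ndc80, parts of the complex that grips microtubules, rose by 1.81 ± 0.19 and 1.96 ± 0.23 (adjusted p = 2.14e-05 and 6.56e-05), Cenpf by 1.76 ± 0.21 (adjusted p = 8.01e-05) and Nuf2 by 1.68 ± 0.25 (adjusted p = 0.000524). Cenpa, the histone variant that marks centromeres, rose by 1.19 ± 0.14 (adjusted p = 6.06e-05).

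Of 35 kinesins and spindle proteins, 31 rose and none fell (median 1.47). Hmmr, a spindle-associated protein (chromosome 11, 40701395 to 40733422), was at 6.78, 7.85, 9.26 and 8.14 CPM in KO, against 3.12, 3.05, 2.26 and 2.59 CPM in WT. Prc1, which bundles microtubules at the midzone, was at 19.02, 24.98, 26.3 and 26.3 CPM in KO, against 6.87, 7.31, 5.46 and 9.005 CPM in WT. Both were separated between the groups and rose by 1.54 ± 0.14 and 1.75 ± 0.17 (adjusted p = 8.44e-06 and 1.38e-05). Aspm, Ckap2l, Ckap2 and Tacc3, which organise spindle poles and microtubules, rose by 1.704 ± 0.21, 1.700 ± 0.26, 1.63 ± 0.17 and 1.11 ± 0.11 (adjusted p = 0.000117, 0.000678, 2.95e-05 and 1.67e-05). Iqgap3, a scaffold protein outside the lists, was at 7.94, 10.95, 9.85 and 9.64 CPM in KO, against 2.67, 2.95, 2.06 and 3.17 CPM in WT and rose by 1.82 ± 0.27 (adjusted p = 0.000554).

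Chromosome structure followed, with 16 of 20 genes higher (median 0.75). Mki67, the proliferation marker that coats mitotic chromosomes (chromosome 7, 135689784 to 135716361), was at 33.9, 26.6, 34.3 and 38.9 CPM in KO, against 11.3, 9.299, 7.88 and 9.43 CPM in WT. Top2a, which untangles DNA (chromosome 11, 98992943 to 99024189), was at 39.9, 47.8, 46.6 and 45.4 CPM in KO, against 11.9, 14.2, 10.7 and 15.4 CPM in WT. The lowest KO value was well above the highest WT value for both genes, and they rose by 1.82 ± 0.15 and 1.78 ± 0.17 (adjusted p = 3.71e-06 and 1.38e-05). Ncaph, a condensin subunit, and Uhrf1, which keeps DNA methylation through replication, rose by 1.18 ± 0.14 and 1.38 ± 0.14 (adjusted p = 7.65e-05 and 1.63e-05).

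**Figure D2:**
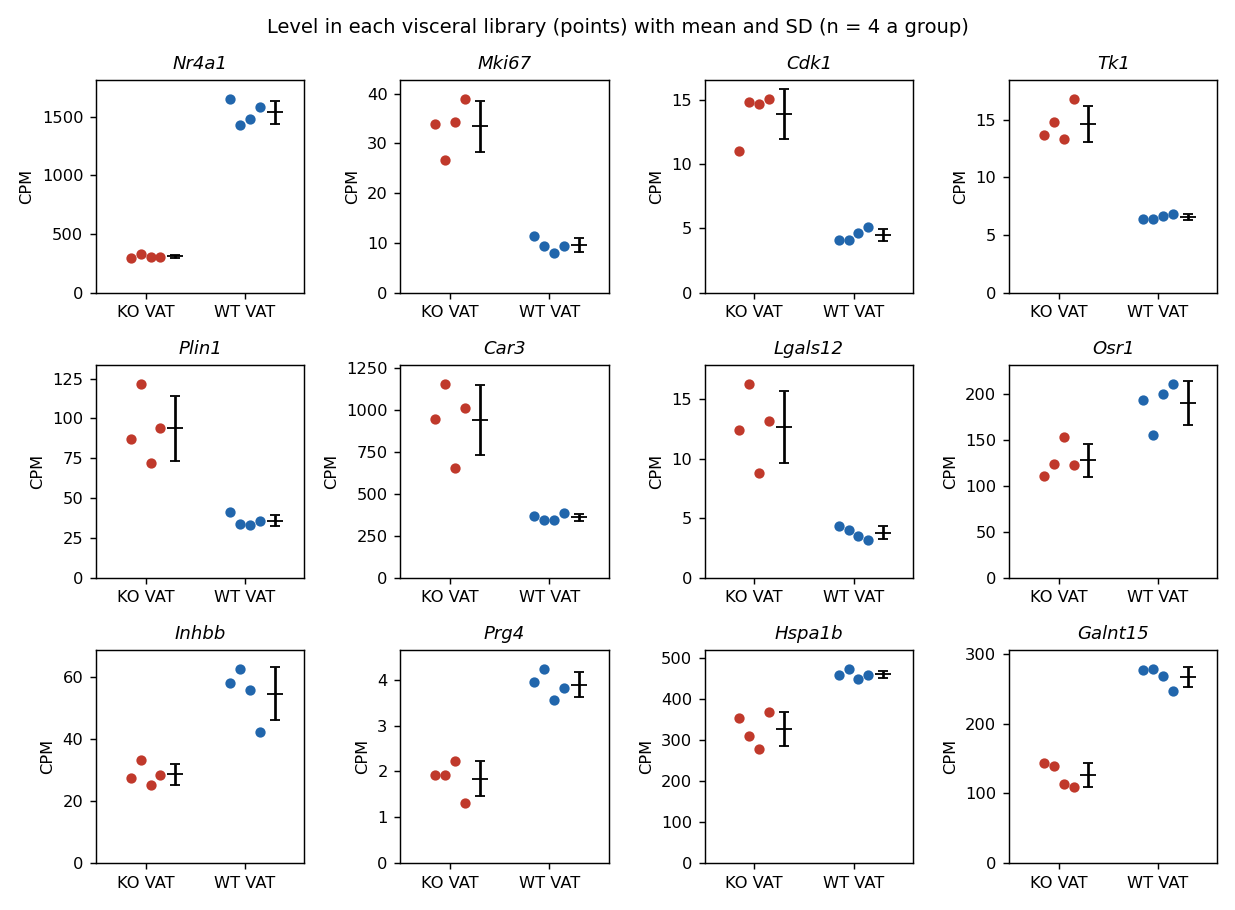
CPM of 12 genes in each library, KO left in red and WT right in blue, with the mean and SD (n = 4 a group) as a bar beside the points; every vertical axis starts at 0. Groups do not overlap for any of the 12 genes, which rise in KO for Mki67, Cdk1, Tk1, Plin1, Car3 and Lgals12 and fall for Nr4a1, Osr1, Inhbb, Prg4, Hspa1b and Galnt15.

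DNA replication genes rose in smaller numbers and by less. Of 41 licensing and fork proteins 17 were higher and none lower (median 0.47), and 11 were higher without WT replicate 1. Dtl, which targets the licensing factor Cdt1 for destruction, was at 5.64, 4.97, 6.102 and 5.44 CPM in KO, against 1.71, 2.08, 1.74 and 1.85 CPM in WT and rose by 1.58 ± 0.19 (adjusted p = 8.83e-05). The polymerase Pole, the helicase subunit Mcm5 and the kinase activator Dbf4 rose by 1.36 ± 0.17, 1.01 ± 0.15 and 0.94 ± 0.15 (adjusted p = 9.52e-05, 0.000552 and 0.000887). For nucleotide supply 7 of 18 genes rose (median 0.29), and 4 without KO replicate 4, WT replicate 1 or WT replicate 2. Thymidine kinase, Tk1 (chromosome 11, 117815526 to 117826092), was at 13.6, 14.8, 13.3 and 16.8 CPM in KO, against 6.396, 6.37, 6.67 and 6.85 CPM in WT. Both groups were tight and apart, and Tk1 rose by 1.15 ± 0.10 (adjusted p = 4.54e-06). The ribonucleotide reductase subunits Rrm2 and Rrm1 rose by 1.25 ± 0.15 and 0.45 ± 0.06 (adjusted p = 8.01e-05 and 0.000103).

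Of 25 genes of homologous recombination and Fanconi repair, 12 rose (median 0.73), with 8 to 12 when 1 library was left out. Fanci, of the Fanconi complex, rose by 1.095 ± 0.21 (adjusted p = 0.00609). The checkpoint kinase Chek1 rose by 0.85 ± 0.16 (adjusted p = 0.00443), a call that ended without epididymal libraries (adjusted p = 0.132). Among G1 cyclins, E2F factors and MuvB regulators, 10 of 30 rose and 1, Myc, fell (median 0.18). The higher count was 5 without WT replicate 3, 6 without KO replicate 1, KO replicate 2 or WT replicate 4, and 7 without any of the other 4 libraries. The lower count stayed at 1 without KO replicate 1 or 2 and was 0 without any of the others. Cyclin E1, Ccne1, rose by 1.16 ± 0.16 (adjusted p = 0.000269), Foxm1, an activator of mitotic genes, by 1.19 ± 0.17 (adjusted p = 0.000406), and E2f2 by 1.405 ± 0.24 (adjusted p = 0.0019, but 0.0662 without epididymal libraries). E2f8, an E2F repressor that is itself made in S phase, stood at 1.85, 3.47, 2.201 and 2.91 CPM in KO, against 0.477, 0.893, 0.515 and 0.408 CPM in WT, low but separated, and rose by 2.18 ± 0.28 (adjusted p = 0.000132).

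Of 28 CDK inhibitors and quiescence-linked genes, 1 rose and 2 fell (median -0.13), against 2.84% and 1.26% of all tested genes. Cdkn2c, an inhibitor of CDK4 and CDK6 (chromosome 4, 109660876 to 109667189), was at 22.97, 25.6, 27.4 and 28.4 CPM in KO, against 14.4, 13.3, 12.7 and 14.3 CPM in WT and rose by 0.93 ± 0.08 (adjusted p = 5.59e-06), in every fit with 1 library left out. Sesn1 and Foxo3, linked to stress resistance and quiescence, fell by 0.34 ± 0.08 and 0.36 ± 0.09 (adjusted p = 0.0211 and 0.0315). Their calls were lost without KO replicate 2 or 4 or WT replicate 1, 3 or 4 (adjusted p from 0.0517 to 0.0693) for Sesn1 and KO replicate 2, 3 or 4 or WT replicate 1, 2, 3 or 4 (adjusted p from 0.0587 to 0.0948) for Foxo3. No p53 target of 19 was called by edgeR, with 4 at an unadjusted p under 0.05, 1 call by DESeq2 and 0 by limma-voom. Sesn2 had the smallest p of that list, at 14.3, 15.9, 14.4 and 15.2 CPM in KO, against 11.5, 11.3, 11.2 and 13.7 CPM in WT (0.33 ± 0.11, adjusted p = 0.0973).

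Without epididymal libraries the higher counts were 15 of 28 for mitotic cyclins and kinases, 23 of 36 for kinetochore genes, 26 of 35 for kinesins, 9 of 20 for chromosome structure, 6 of 41 for replication, 3 of 18 for nucleotide supply, 6 of 25 for recombination and 5 of 30 for G1 regulators. In bulk libraries, more cells of a type and more RNA per cell cannot be told apart. As the mean of log2(CPM + 1) over the kinesin list minus its WT mean, the KO libraries were at 0.871, 1.034, 1.145 and 1.051, and the WT libraries at 0.068, 0.024, -0.1 and 0.008. Every KO library was above every WT library. KO replicates 3 and 4, which hold epididymal transcripts, were above KO replicates 1 and 2 in this list. The same held for the mitotic (0.978 and 0.872, against 0.738 and 0.859), kinetochore (0.848 and 0.892, against 0.718 and 0.765) and chromosome structure lists (0.796 and 0.843, against 0.712 and 0.78). In the recombination list KO replicates 3 and 4 were below KO replicates 1 and 2 (0.496 and 0.515, against 0.53 and 0.544). Neither order held in the replication, nucleotide supply and G1 lists. WT replicate 2 also holds epididymal transcripts. It was at 0.024 in the kinesin, 0.03 in the mitotic, -0.012 in the kinetochore and -0.024 in the chromosome structure list. Those levels lay within the range of the other WT libraries. It was the highest WT library in the recombination (0.033) and G1 lists (0.032) and the lowest in the replication list (-0.055).

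Tested members of division lists, whether called or not, were looked at in the promoter table of RefSeq (GRCm38.p6). Its windows run from 250 bases before to 50 after a gene start. Both strands were searched for 4 motifs: the CHR element TTTGAA, at which MuvB complexes act on G2 and M phase genes; the CCAAT box, CCAAT; an E2F site, TTTCCCGC or TTTGGCGC; and NBRE, AAAGGTCA. For the mitotic, kinetochore and kinesin lists 80 of 97 genes had a window, 86 windows in all. CHR was in 60.5% of them, against 17.9% of all 32851 windows, and CCAAT in 73.3%, against 37.4%. The E2F site was in 5.81%, against 1.57%, and NBRE in none, against 1.51%. For replication and nucleotide genes (49 of 59 genes, 55 windows) CHR was in 16.4%, CCAAT in 54.5%, the E2F site in 23.6% and NBRE in none. Windows were found for under 80% of all tested genes (12218 of 16638) and of the genes called higher (348 of 472) and lower (155 of 212). The same was true of the adipocyte genes (51 of 68), so shares for these sets are void. The shares over all windows therefore include genes that were not tested. A match describes letters in a window and is neither a site nor a cause.

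The 4 windows printed here belong to the called division genes with the smallest p whose window held a match, so that they show where the motifs lie. Each is given 5′ to 3′ on the gene's strand, with the motif matches in capitals, ATTGG being CCAAT on the other strand. All 4 genes are on the minus strand: Cdk1 at chr10:69352863-69353162, Mki67 at chr7:135716330-135716629, Hmmr at chr11:40733388-40733687 and Cdkn2c, 1 of 2 windows, at chr4:109665323-109665622.
Cdk1: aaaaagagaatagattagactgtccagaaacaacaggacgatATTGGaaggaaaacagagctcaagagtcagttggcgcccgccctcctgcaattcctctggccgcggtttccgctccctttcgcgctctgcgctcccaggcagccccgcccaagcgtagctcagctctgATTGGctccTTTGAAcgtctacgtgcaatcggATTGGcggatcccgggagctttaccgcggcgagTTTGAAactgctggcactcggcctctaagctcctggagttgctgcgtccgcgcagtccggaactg
Mki67: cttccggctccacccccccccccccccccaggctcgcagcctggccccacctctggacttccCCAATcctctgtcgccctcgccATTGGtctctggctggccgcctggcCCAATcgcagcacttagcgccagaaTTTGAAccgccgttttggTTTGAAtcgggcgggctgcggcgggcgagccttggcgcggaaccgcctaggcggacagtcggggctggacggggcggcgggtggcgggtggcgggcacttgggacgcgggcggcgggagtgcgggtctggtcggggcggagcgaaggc
Hmmr: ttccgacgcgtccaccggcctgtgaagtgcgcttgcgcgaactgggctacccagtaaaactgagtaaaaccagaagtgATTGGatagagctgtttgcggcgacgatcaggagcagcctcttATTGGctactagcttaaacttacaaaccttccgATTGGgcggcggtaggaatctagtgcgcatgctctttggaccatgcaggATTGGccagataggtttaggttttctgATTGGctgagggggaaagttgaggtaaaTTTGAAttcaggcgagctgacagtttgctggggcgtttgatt
Cdkn2c: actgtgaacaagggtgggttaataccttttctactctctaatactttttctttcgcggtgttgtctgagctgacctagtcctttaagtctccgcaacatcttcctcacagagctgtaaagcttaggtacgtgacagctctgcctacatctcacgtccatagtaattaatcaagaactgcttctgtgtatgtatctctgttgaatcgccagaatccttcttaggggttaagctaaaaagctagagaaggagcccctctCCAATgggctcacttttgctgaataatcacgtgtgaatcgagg
Counted from the gene start, CHR begins at -71 and -15 in Cdk1, at -116 and -98 in Mki67 and at 8 in Hmmr, while the Cdkn2c window holds a single CCAAT box, at 7. Cdk1 and Mki67 each hold 3 CCAAT boxes and Hmmr holds 5.

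Adipocyte genes were the other raised group. Of 113 tested genes of the adipogenesis lists, regulators included, 28 were called (24.8%, against 4.1% of all tested genes). Over all tested genes, 2.84% were called higher and 1.26% lower. Of 23 tested genes of lipid droplets and triglyceride storage 8 rose and none fell (median 0.33). Plin1, which coats the lipid droplet (chromosome 7, 79720218 to 79732903), was at 87.3, 121, 72.2 and 93.7 CPM in KO, against 41.2, 33.8, 32.96 and 35.7 CPM in WT. Lgals12, a lectin of lipid droplets (chromosome 19, 7596660 to 7607193), was at 12.4, 16.2, 8.83 and 13.1 CPM in KO, against 4.38, 4.03, 3.46 and 3.17 CPM in WT. KO replicate 2 was highest and KO replicate 3 lowest for both, with no overlap with WT, and they rose by 1.38 ± 0.17 and 1.75 ± 0.18 (adjusted p = 9.52e-05 and 2.86e-05). Gpd1, which makes the glycerol backbone of triglyceride, was at 41.6, 56.7, 32.3 and 52.5 CPM in KO, against 14.7, 14.2, 15.1 and 17.9 CPM in WT, and rose by 1.56 ± 0.25 (adjusted p = 0.00123). Pnpla3, a lipid droplet lipase, rose by 1.13 ± 0.15 (adjusted p = 0.000208).

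For fatty acid uptake and synthesis, 7 of 23 genes rose and none fell (median 0.25). Car3, carbonic anhydrase 3, an abundant adipocyte enzyme (chromosome 3, 14863512 to 14872523), was at 947, 1152, 654 and 1008 CPM in KO, against 365, 343, 343 and 387 CPM in WT. Among called protein-coding genes with separated groups it had the largest gain in CPM, and it rose by 1.39 ± 0.18 (adjusted p = 0.000174). Acsl1, which activates fatty acids, was at 85.3, 116, 81.5 and 101 CPM in KO, against 42.8, 41.2, 42.5 and 39.99 CPM in WT, and Fabp5, a fatty acid carrier, at 49.9, 55.4, 42.5 and 64.6 CPM in KO, against 25.7, 20.2, 25.4 and 27.5 CPM in WT. They rose by 1.203 ± 0.15 and 1.105 ± 0.15 (adjusted p = 0.000104 and 0.000265), and pyruvate carboxylase, Pcx, by 0.92 ± 0.13 (adjusted p = 0.000404). The desaturase Scd2 was at 189, 266, 225 and 226 CPM in KO, against 151, 166, 150.4 and 167 CPM in WT and rose by 0.52 ± 0.11 (adjusted p = 0.0108, but 0.107 without epididymal libraries). Fabp4, an abundant adipocyte carrier singled out after its values were seen, was at 1036, 1143, 766 and 989 CPM in KO, against 844, 886, 1043 and 931 CPM in WT, overlapping and not called (adjusted p = 0.857).

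Of 22 adipokines and adipocyte receptors 6 rose (median 0.26). Adiponectin, Adipoq (chromosome 16, 23146536 to 23158028), was at 48.4, 65.9, 36.7 and 63.04 CPM in KO, against 18.5, 15.7, 19.1 and 22.5 CPM in WT and rose by 1.497 ± 0.24 (adjusted p = 0.00124). The lipolytic receptor Adrb3 was at 16.9, 26.5, 10.2 and 21.7 CPM in KO, against 6.79, 5.33, 6.53 and 7.02 CPM in WT and rose by 1.55 ± 0.24 (adjusted p = 0.000947). The adiponectin receptor Adipor2 rose by 0.41 ± 0.08 (adjusted p = 0.0047), and adipogenin, Adig, by 1.64 ± 0.31 (adjusted p = 0.00443, but 0.0973 without epididymal libraries). Of 20 thermogenic genes 2 rose: the transporter Slc36a2, at 10.3, 14.1, 9.55 and 12.6 CPM in KO, against 4.34, 4.52, 3.48 and 3.73 CPM in WT (1.53 ± 0.13, adjusted p = 4.18e-06), and Dio2, which activates thyroid hormone, at 1.58, 2.02, 2.005 and 1.01 CPM in KO, against 0.737, 0.498, 0.653 and 0.622 CPM in WT (1.396 ± 0.26, adjusted p = 0.00403).

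The mean of log2(CPM + 1) over the lipid droplet list, minus its WT mean, was 0.429, 0.661, 0.237 and 0.534 in KO, against -0.007 to 0.01 in WT. The order of the KO libraries differed from that of the kinesin list, where replicate 3 was highest and replicate 1 lowest. Without epididymal libraries 6, 6, 4 and 2 genes of the storage, fatty acid, adipokine and thermogenic lists were higher. Adipoq, Plin1 and Cidec are also the markers of mature adipocytes. Cidec stood at 11.7, 17.97, 10.05 and 12.97 CPM in KO, against 6.87, 4.86, 7.19 and 7.18 CPM in WT (1.01 ± 0.22, adjusted p = 0.0155), and leptin, Lep, at 0.589, 0.198, 0.697 and 0.188 CPM in KO, against 0.369, 0.311, 0.218 and 0.486 CPM in WT, near 0 in both groups and overlapping. The share of mature adipocytes or their free RNA in these increases was not tested.

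**Figure D3:**
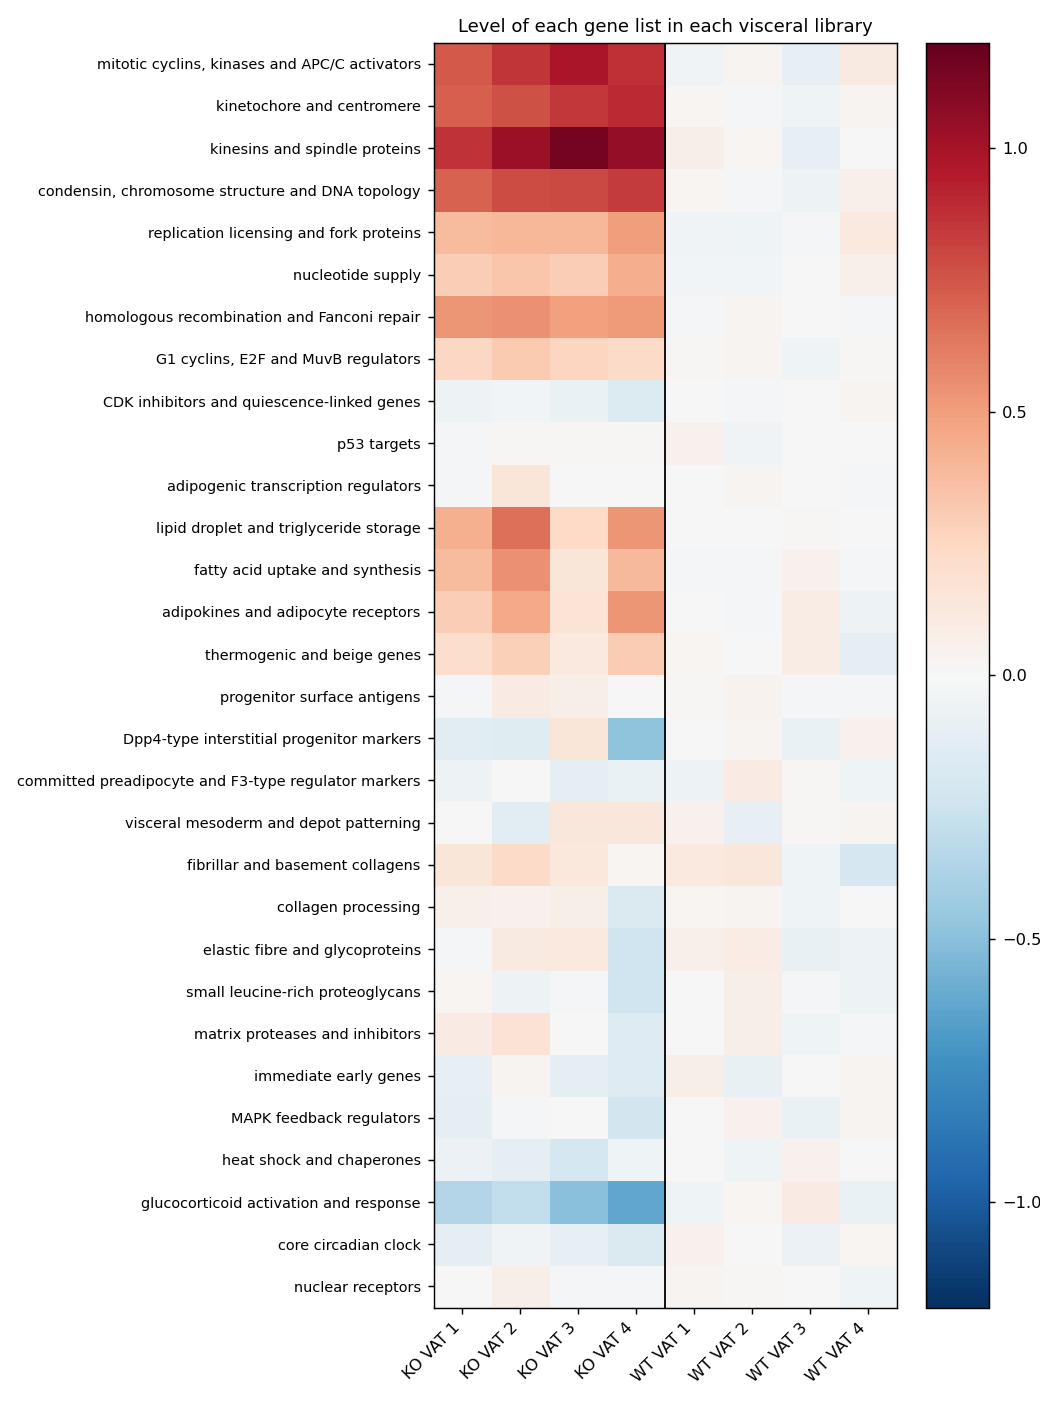
Level of each gene list in each visceral library, as the mean log2(CPM + 1) of its tested genes minus the mean of the 4 WT libraries (colour), with KO libraries left of the line and WT right. The first 8 lists, from mitotic cyclins to G1 regulators, are above 0 in every KO library, while CDK inhibitors (-0.034 to -0.16 in KO) and p53 targets (-0.01 to 0.018 in KO) are not raised, the lipid droplet list most in KO replicate 2 (0.661) and least in KO replicate 3 (0.237), and the glucocorticoid list is lowest in KO replicate 4 (-0.619).

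The regulators of adipogenesis moved in both directions, 3 of 27 higher and 2 lower (median 0.05), against 2.84% and 1.26% of all tested genes. Mlxipl, the carbohydrate-responsive factor ChREBP, was at 4.87, 6.25, 3.49 and 5.79 CPM in KO, against 2.34, 2.32, 2.18 and 1.85 CPM in WT and rose by 1.23 ± 0.20 (adjusted p = 0.00126). Cebpa, of the terminal adipogenic programme, was at 72.2, 111, 70.7 and 102 CPM in KO, against 57.3, 59.2, 55.4 and 65.9 CPM in WT and rose by 0.58 ± 0.13 (adjusted p = 0.0152), a call lost without KO replicate 2 or 4 or WT replicate 1 or 3 (adjusted p from 0.0525 to 0.0594). Srebf1, a regulator of lipid synthesis, was the other gene that rose. Klf15 (chromosome 6, 90462576 to 90475238), a glucocorticoid-induced factor, was at 28.4, 29.6, 27.1 and 25.1 CPM in KO, against 41.02, 37.6, 42.96 and 46.5 CPM in WT, the groups apart, and fell by 0.61 ± 0.09 (adjusted p = 0.000699). Cebpd, an early adipogenic factor also induced by glucocorticoids, fell by 0.55 ± 0.13 (adjusted p = 0.027), a call lost without KO replicate 1, 3 or 4 or WT replicate 1, 2, 3 or 4 (adjusted p from 0.053 to 0.0758). Pparg, the master regulator, was chosen after its values were seen. It stood at 44.7, 53.3, 43.4 and 41.5 CPM in KO, against 29.7, 32.9, 34.8 and 38.3 CPM in WT, without overlap, but was not called (0.43 ± 0.12, adjusted p = 0.0597). The 3 higher and 2 lower calls were 1 and 3 without KO replicate 2, 2 and 1 without WT replicate 2 or 4, 3 and 1 without KO replicate 1 or 3, and 1 and 1 without any of the other 3 libraries.

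Of 95 tested genes of the progenitor identity lists 6 were called (6.32%, against 4.1% of all tested genes). Of 20 surface antigens 1 was called, Cd24a, at 9.74, 12.7, 11.8 and 26.2 CPM in KO, against 5.46, 9.53, 8.39 and 4.901 CPM in WT, with KO replicate 4 far above the rest. It rose by 1.09 ± 0.27 (adjusted p = 0.0319), but by 0.69 without KO replicate 4, and the call was lost without KO replicate 4 or WT replicate 1, 3 or 4 (adjusted p from 0.0517 to 0.118). None of 23 Dpp4-type interstitial progenitor markers was called by edgeR (median -0.16), with 4 at an unadjusted p under 0.05, 1 lower by DESeq2, 0 by limma-voom and 1 lower without KO replicate 3. Pcolce2 had their smallest p, at 121, 106, 123 and 83.1 CPM in KO, against 147, 162, 131 and 146 CPM in WT (-0.44 ± 0.14, adjusted p = 0.0859). Of 27 markers of committed preadipocytes and F3-type regulator cells 3 fell and none rose (median -0.03). Inmt, a methyltransferase (chromosome 6, 55170626 to 55175043), was at 191, 189.9, 154 and 211 CPM in KO, against 365, 454, 328 and 288 CPM in WT and fell by 0.94 ± 0.20 (adjusted p = 0.00989, but 0.176 without epididymal libraries). Gdf10, a BMP family ligand, fell by 0.53 ± 0.13 (adjusted p = 0.0239) and Ggt5, a glutamyltransferase, by 0.44 ± 0.11 (adjusted p = 0.0261). Their calls were lost without KO replicate 3 or 4 or WT replicate 1 or 2 (adjusted p from 0.0551 to 0.0833) for Gdf10 and KO replicate 3 or 4 or WT replicate 1, 2 or 3 (adjusted p from 0.0632 to 0.0761) for Ggt5. Of 30 visceral patterning genes, Osr1, a factor of lateral mesoderm (chromosome 12, 9570116 to 9581500), was at 111, 124, 153 and 123 CPM in KO, against 194, 156, 200.3 and 211 CPM in WT. It fell by 0.57 ± 0.10 (adjusted p = 0.00333) and kept its call in every fit with 1 library left out and without epididymal libraries (adjusted p = 0.00159). In that last fit mesothelium markers summed lower in KO than in WT, as given below, and what this contributed was not tested. Hoxc10 was at 4.12, 1.36, 3.400 and 4.01 CPM in KO, against 1.52, 1.72, 1.37 and 1.94 CPM in WT, overlapping through KO replicate 2. It rose by 0.98 ± 0.23 (adjusted p = 0.0239), a call lost without KO replicate 1, 3 or 4 or WT replicate 1, 2 or 3 (adjusted p from 0.0541 to 0.0875).

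Extracellular matrix lists had 9 of 131 genes called (6.87%, against 4.1% of all). No fibrillar or basement collagen of 27 and no collagen processing gene of 23 was called by edgeR (medians 0.10 and 0.02), with 7 and 7 at an unadjusted p under 0.05. DESeq2 called 3 collagens higher and 2 processing genes lower, and limma-voom 1 collagen higher. Col23a1 had the smallest collagen p, at 10.6, 18.5, 12.1 and 22.4 CPM in KO, against 8.35, 10.6, 12.2 and 7.12 CPM in WT (0.73 ± 0.20, adjusted p = 0.0511), and passed without KO replicate 1 or 3 or WT replicate 3 (adjusted p from 0.0139 to 0.0384). Of 33 elastic fibre genes and glycoproteins, 3 rose and 1 fell. Mfap2, a microfibril protein, was at 97.6, 96.6, 104 and 116 CPM in KO, against 65.3, 76.5, 67.7 and 56.1 CPM in WT, separated, and rose by 0.64 ± 0.12 (adjusted p = 0.00326). Fbn2, fibrillin 2, rose by 0.97 ± 0.22 (adjusted p = 0.0155, lost without KO replicate 2 or WT replicate 1 (adjusted p from 0.0527 to 0.0623)), and periostin, Postn, which overlapped slightly between the groups, by 0.48 ± 0.12 (adjusted p = 0.0295, lost without KO replicate 1, 2 or 3 or WT replicate 1 or 3 (adjusted p from 0.0587 to 0.101)). Tenascin X, Tnxb, was at 1163, 1267, 1286 and 941 CPM in KO, against 1690.4, 1728, 1388 and 1544 CPM in WT and fell by 0.45 ± 0.10 (adjusted p = 0.0205, lost without KO replicate 4 or WT replicate 1 or 2 (adjusted p from 0.0544 to 0.0691)).

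Of 15 small leucine-rich and related proteoglycans 3 fell. Lubricin, Prg4 (chromosome 1, 150449412 to 150466165), was low but apart, at 1.93, 1.91, 2.22 and 1.31 CPM in KO, against 3.97, 4.23, 3.56 and 3.83 CPM in WT, and fell by 1.08 ± 0.16 (adjusted p = 0.000558). Ecm2 fell by 0.36 ± 0.10 (adjusted p = 0.0412, lost without KO replicate 2, 3 or 4 or WT replicate 1, 2, 3 or 4 (adjusted p from 0.0576 to 0.115)) and Podn by 0.36 ± 0.10 (adjusted p = 0.0415, lost without KO replicate 2, 3 or 4 or WT replicate 1, 2 or 4 (adjusted p from 0.0724 to 0.148)). Of 33 matrix proteases and inhibitors, Adamts9 and Adamts17 rose by 0.55 ± 0.13 and 0.95 ± 0.26 (adjusted p = 0.0263 and 0.0465). These calls were lost without KO replicate 1, 2 or 3 or WT replicate 2 or 4 (adjusted p from 0.0523 to 0.0893) and without any 1 of the 8 libraries (adjusted p from 0.0566 to 0.152).

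Only 39 of the 212 lower calls were in any of the gene lists. Among the lists, that of glucocorticoid genes had the most lower calls. Of 71 tested hormone, clock and nuclear receptor genes 10 were called (14.1%, against 4.1% of all). Of 89 immediate early, MAPK feedback and heat shock genes 11 were called (12.4%). Nr4a2, in both sets, was the higher call and the others were lower. Of 22 genes of glucocorticoid activation and response, 6 fell and none rose, with a median of -0.49, and every KO library lay below every WT library for 13 (background 6.72%). Tsc22d3, also called GILZ, a direct glucocorticoid target (chromosome X, 140539528 to 140600659), was at 199, 198, 198 and 157 CPM in KO, against 295, 288, 388 and 369 CPM in WT. KO replicate 4 was lowest, and the gene fell by 0.83 ± 0.19 (adjusted p = 0.0169), a call lost without KO replicate 4 or WT replicate 3 or 4 (adjusted p from 0.0544 to 0.0649). Klf15 and Cebpd, given above, Errfi1, Dusp1 and Sult1a1 were the others. Errfi1, a brake on the EGF receptor, was at 1166, 1166, 1016 and 779 CPM in KO, against 1566, 1461, 1376 and 1392 CPM in WT and fell by 0.49 ± 0.12 (adjusted p = 0.0229, lost without KO replicate 3 or WT replicate 1 or 2 (adjusted p from 0.0535 to 0.077)). The count of 6 was 2 without KO replicate 4, WT replicate 3 or WT replicate 4, 3 without KO replicate 1, KO replicate 3, WT replicate 1 or WT replicate 2, and 1, Klf15, without epididymal libraries. By mean log2(CPM + 1) minus the WT mean, the list stood at -0.354, -0.295, -0.499 and -0.619 in KO.

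Of 19 clock genes 3 fell. Nr1d1, the repressor REV-ERB alpha (chromosome 11, 98767932 to 98775333), was at 117, 106, 115 and 105 CPM in KO, against 162, 164, 145 and 179.8 CPM in WT and fell by 0.55 ± 0.10 (adjusted p = 0.00214, but 0.0652 without epididymal libraries). Its relative Nr1d2 fell by 0.36 ± 0.09 (adjusted p = 0.0391, lost without KO replicate 2, 3 or 4 or WT replicate 1, 2, 3 or 4 (adjusted p from 0.0555 to 0.128)) and the output factor Dbp by 0.46 ± 0.12 (adjusted p = 0.0448, lost without KO replicate 1, 2 or 3 or WT replicate 1, 2 or 4 (adjusted p from 0.0829 to 0.127)). The time of day of collection is not stated in the labels. Of 36 nuclear receptors, a list that leaves out Nr4a1, Nr4a2 rose and Nr1d1 and Nr1d2 fell, with a median of -0.0007.

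Of 31 heat shock and chaperone genes 4 fell, and 2 without KO replicate 2, KO replicate 4, WT replicate 1, WT replicate 3 or WT replicate 4. Hspa1b (chromosome 17, 34956436 to 34959238) was at 355, 309, 278 and 368 CPM in KO, against 459, 473, 450.3 and 460.1 CPM in WT and Hspa1a (chromosome 17, 34969190 to 34972156) at 145, 125, 114 and 159.5 CPM in KO, against 179, 187, 178 and 183 CPM in WT. These inducible HSP70 genes are near-identical copies whose reads the counting could split or drop. They fell by 0.49 ± 0.09 and 0.42 ± 0.09 (adjusted p = 0.00236 and 0.0128), in every fit with 1 library left out and without epididymal libraries (adjusted p = 0.0281 and 0.0473). Dnajb9 fell by 0.27 ± 0.07 (adjusted p = 0.028, lost without KO replicate 2 or 4 or WT replicate 1, 2, 3 or 4 (adjusted p from 0.0603 to 0.0907)) and Hspb1 by 0.53 ± 0.13 (adjusted p = 0.0293, lost without KO replicate 2, 3 or 4 or WT replicate 1, 3 or 4 (adjusted p from 0.0688 to 0.0935)).

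Of 35 immediate early genes, a list that also leaves out Nr4a1, 4 fell, Jun, Atf3, Junb and Myc, and 1 rose, Nr4a2. Jun, a subunit of AP-1, was at 2342, 2461, 2119.7 and 2391 CPM in KO, against 2894, 2877, 2983 and 2887 CPM in WT and fell by 0.32 ± 0.08 (adjusted p = 0.0276, lost without KO replicate 1 or 3 or WT replicate 1, 2, 3 or 4 (adjusted p from 0.0562 to 0.0829)). Atf3 was at 1312, 1289.8, 1306 and 1276 CPM in KO, against 1736, 1414, 1779 and 1843 CPM in WT and fell by 0.39 ± 0.10 (adjusted p = 0.0386, lost without KO replicate 1, 2, 3 or 4 or WT replicate 1, 3 or 4 (adjusted p from 0.0693 to 0.118)). Junb was at 1498, 1621, 1587 and 1658 CPM in KO, against 1957, 1849, 1943 and 1968 CPM in WT and fell by 0.28 ± 0.07 (adjusted p = 0.041, lost without any 1 of the 8 libraries (adjusted p from 0.052 to 0.106)). The groups were apart for all 3 genes. Of 23 MAPK feedback genes the phosphatase Dusp1 and Errfi1 fell; Dusp1 was at 1023, 1049, 1074 and 949 CPM in KO, against 1402, 1271, 1431 and 1459 CPM in WT and fell by 0.44 ± 0.11 (adjusted p = 0.0312, lost without KO replicate 1, 2 or 4 or WT replicate 1, 3 or 4 (adjusted p from 0.0611 to 0.0978)).

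**Figure D4:**
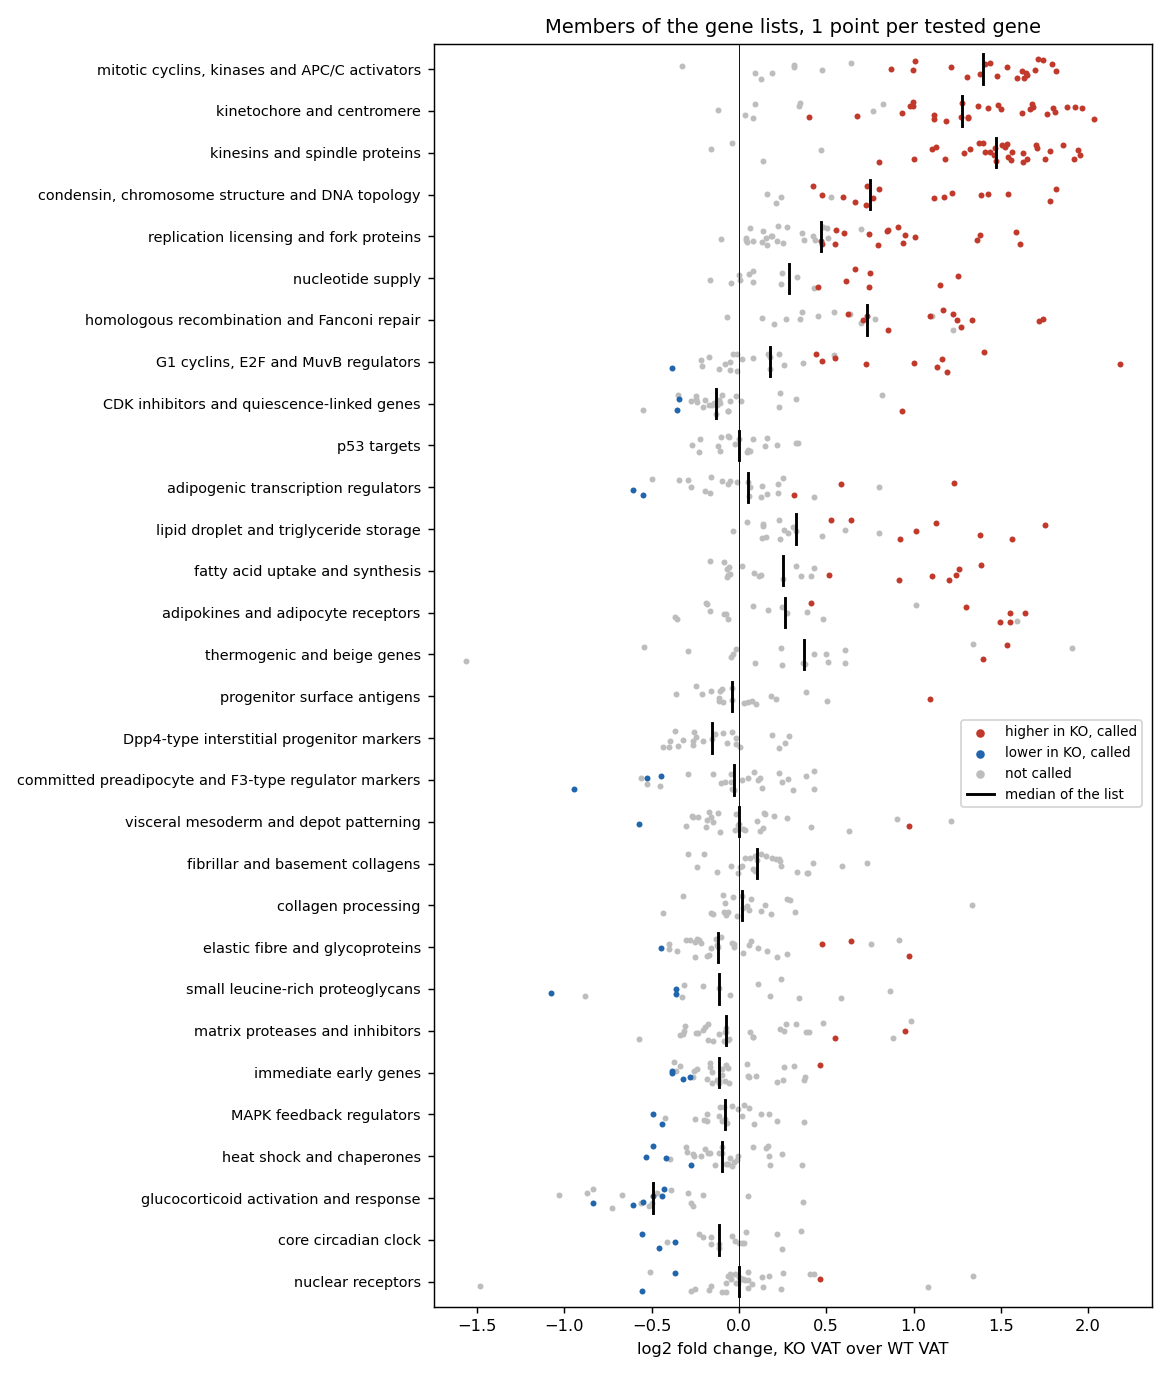
Log2 fold change, KO over WT, of each tested gene of the lists (1 point per gene; red called higher in KO, blue called lower, grey not called), with the median of each list as a black bar. Medians reach 1.47 for kinesins and spindle proteins and -0.49 for the glucocorticoid list, while most other lists sit near 0.

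Secreted signals and their receptors showed scattered calls, 8 of 133 tested genes (6.02%, against 4.1% of all). Of 46 genes of TGF-beta, activin and BMP signalling 3 fell and none rose (median -0.12). Inhbb, the activin B subunit (chromosome 1, 119415465 to 119422248), was at 27.4, 33.3, 25.2 and 28.4 CPM in KO, against 57.97, 62.5, 55.8 and 42.4 CPM in WT and fell by 0.94 ± 0.13 (adjusted p = 0.00034), with every KO library below every WT library. Bambi, a decoy receptor of the pathway, was at 36.6, 45.04, 34.5 and 39.4 CPM in KO, against 48.3, 51.7, 54.9 and 48.9 CPM in WT and fell by 0.39 ± 0.08 (adjusted p = 0.00913, but 0.205 without epididymal libraries). Gdf10, given above, was the other. Of 43 Wnt genes 2 fell and 1 rose. Wnt2b was at 38.9, 30.1, 49.5 and 37.99 CPM in KO, against 70.2, 43.6, 69.4 and 70.6 CPM in WT, overlapping through WT replicate 2, and fell by 0.70 ± 0.16 (adjusted p = 0.0207). Its call was lost without KO replicate 2 or 4 or WT replicate 1, 3 or 4 (adjusted p from 0.0616 to 0.0707), and it passed without epididymal libraries (adjusted p = 0.00365). Wnt11 fell by 0.53 ± 0.13 (adjusted p = 0.0234, lost without KO replicate 1 or 4 or WT replicate 1, 2 or 4 (adjusted p from 0.0531 to 0.0791)). Rspo3, which amplifies Wnt signals, rose by 0.86 ± 0.20 (adjusted p = 0.0207, lost without KO replicate 4 or WT replicate 1 or 4 (adjusted p from 0.0664 to 0.0794)).

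Of 44 IGF, PDGF and FGF ligands and receptors 2 rose. Vegfa rose by 0.42 ± 0.10 (adjusted p = 0.0263, lost without KO replicate 1, 2 or 4 or WT replicate 3 or 4 (adjusted p from 0.052 to 0.0903)). Igf2 was at 30.2, 27.4, 32.8 and 56.1 CPM in KO, against 22.4, 24.2, 25.4 and 14.3 CPM in WT, with KO replicate 4 highest. It rose by 0.76 ± 0.21 (adjusted p = 0.0472), but by 0.48 without KO replicate 4, and its call was lost without KO replicate 3 or 4 or WT replicate 1, 2, 3 or 4 (adjusted p from 0.0591 to 0.172).

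Of 143 metabolic genes outside the fat storage lists 9 were called (6.29%, against 4.1% of all). Of 34 glycolysis and hypoxia targets 3 rose, Vegfa and Pgk1 among them, and 2 fell. Adm, adrenomedullin, was at 74.7, 80.97, 72.8 and 58.7 CPM in KO, against 101, 121, 107 and 95.1 CPM in WT and fell by 0.56 ± 0.11 (adjusted p = 0.00556, but 0.17 without epididymal libraries). Ndrg1 fell by 0.35 ± 0.08 (adjusted p = 0.0216, lost without KO replicate 1, 2 or 4 or WT replicate 4 (adjusted p from 0.0549 to 0.078)), while Pgk1, a glycolytic kinase, rose by 0.30 ± 0.07 (adjusted p = 0.0252, lost without KO replicate 2 or 4 or WT replicate 1 or 2 (adjusted p from 0.0562 to 0.0931)). Of 28 cholesterol genes 2 rose and 1 fell, with a median of 0.34. Fdps, an enzyme of the mevalonate pathway, rose by 0.65 ± 0.15 (adjusted p = 0.0175, lost without KO replicate 2 or WT replicate 1 or 2 (adjusted p from 0.0539 to 0.0618)). The SREBP anchors Insig1 and Insig2 went in opposite directions, Insig1 by 0.49 ± 0.12 (adjusted p = 0.0249, lost without KO replicate 1 or 2 or WT replicate 1, 2, 3 or 4 (adjusted p from 0.0542 to 0.0794)) and Insig2 by -0.25 ± 0.07 (adjusted p = 0.0487, lost without KO replicate 1, 3 or 4 or WT replicate 1, 2, 3 or 4 (adjusted p from 0.0738 to 0.14)). No nuclear respiratory chain gene of 38, ribosome biogenesis gene of 22 or retinoid gene of 14 was called by edgeR, DESeq2 or limma-voom, with 2, 1 and 2 at an unadjusted p under 0.05. In the ribosome biogenesis and retinoid lists the smallest p-values belonged to Dkc1 (0.19 ± 0.08, adjusted p = 0.194) and Crabp2 (1.18 ± 0.44, adjusted p = 0.167). Of 7 mitochondrially encoded genes, mt-Nd6 rose by 0.56 ± 0.15 (adjusted p = 0.0474, lost without KO replicate 1, 3 or 4 or WT replicate 1, 2 or 4 (adjusted p from 0.078 to 0.139)).

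Among immune response genes 8 of 137 were called (5.84%, against 4.1% of all). None of 42 type I interferon-stimulated genes was called in VAT by edgeR (median -0.02), with 6 at an unadjusted p under 0.05 and 1 lower by both DESeq2 and limma-voom. Of 14 GBP and IRG GTPases only Iigp1 rose, by 0.42 ± 0.10 (adjusted p = 0.0293, lost without KO replicate 1, 2 or 4 or WT replicate 2, 3 or 4 (adjusted p from 0.0536 to 0.101)). Of 19 genes of MHC class I presentation 3 rose. Nlrc5, their transcriptional activator, was at 3.998, 4.398, 4.29 and 4.71 CPM in KO, against 3.43, 2.43, 2.51 and 2.84 CPM in WT and rose by 0.63 ± 0.12 (adjusted p = 0.00582, but 0.153 without epididymal libraries). H2-Q7 and H2-Q6 rose by 0.58 ± 0.15 and 0.61 ± 0.16 (adjusted p = 0.0341 and 0.0462). These Qa genes are close copies that differ between mouse strains, and their calls were lost without KO replicate 3 or 4 or WT replicate 2 or 4 (adjusted p from 0.0853 to 0.122) and without KO replicate 1, 3 or 4 or WT replicate 1, 2, 3 or 4 (adjusted p from 0.0514 to 0.167).

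Of 40 chemokines and stromal cytokines, Tnfsf13b, the B cell factor BAFF, was at 5.601, 6.62, 5.797 and 5.79 CPM in KO, against 9.11, 9.38, 9.24 and 9.12 CPM in WT and fell by 0.63 ± 0.10 (adjusted p = 0.00162, but 0.0703 without epididymal libraries). Ccl19 rose by 0.64 ± 0.15 (adjusted p = 0.0239, lost without KO replicate 2 or 4 or WT replicate 1, 2 or 3 (adjusted p from 0.0659 to 0.0854)). Of 23 complement genes 2 fell (median -0.23). The central complement protein gene C3 was at 6538, 6364, 5831 and 5696 CPM in KO, against 8196, 7209, 7996 and 7595 CPM in WT, the largest loss in CPM among called genes, and fell by 0.34 ± 0.09 (adjusted p = 0.0368, lost without KO replicate 2, 3 or 4 or WT replicate 1, 3 or 4 (adjusted p from 0.0571 to 0.108)).

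Markers of other cell types were compared as summed CPM, and 9 of 148 tested markers were called (6.08%, against 4.1% of all). Mesothelium summed to 1253 to 2303 CPM in KO and 1256 to 2323 CPM in WT, with 0 of 17 genes called by edgeR, 1 at an unadjusted p under 0.05 and 1 lower by both DESeq2 and limma-voom. Muc16 had the smallest p (-0.96 ± 0.27, adjusted p = 0.0829) and passed without KO replicate 3 (adjusted p = 0.034) and without epididymal libraries (adjusted p = 0.0204). Among the other 5 libraries the sums did not overlap, at 1350 and 1253 CPM in KO, against 1918, 2178 and 2323 CPM in WT, and 3 of the 17 genes were called lower. What this imbalance in mesothelium contributed to the counts and calls without epididymal libraries, those of Osr1 and Wnt2b among them, was not tested. Macrophage markers summed to 92.9 to 139.0 CPM in KO and 82.0 to 122.7 CPM in WT. Fcer1g and Cd68 rose by 0.77 ± 0.19 and 0.60 ± 0.16 (adjusted p = 0.0263 and 0.0491; lost without KO replicate 2 or 4 or WT replicate 3 or 4 (adjusted p from 0.06 to 0.09) and without KO replicate 1, 3 or 4 or WT replicate 1, 2, 3 or 4 (adjusted p from 0.0667 to 0.159)), and Trem2 fell by 1.21 ± 0.29 (adjusted p = 0.0229, lost without KO replicate 1, 2 or 3 or WT replicate 1 or 4 (adjusted p from 0.0615 to 0.084)). Endothelial markers summed to 183.8 to 206.2 CPM in KO and 216.8 to 241.2 CPM in WT, with no overlap. The most abundant members, Esam, Tek and Kdr, had log2 fold changes of -0.24, -0.32 and -0.82, none of them called. Yet 9 of the 15 tested members had a positive log2 fold change (median 0.28). Only Plvap was called, and it rose by 0.76 ± 0.15 (adjusted p = 0.00694, but 0.201 without epididymal libraries). Pericyte and smooth muscle markers summed to 6039 to 7908 CPM in KO and 6414 to 7033 CPM in WT, with none called by edgeR, DESeq2 or limma-voom and 3 at an unadjusted p under 0.05. Cnn1 had the smallest p there (0.90 ± 0.29, adjusted p = 0.1). Schwann and neural markers summed to 339.3 to 444.7 CPM in KO and 434.7 to 542 CPM in WT, with 1 of 16 genes higher and 1 lower. The receptor Ngfr rose by 1.16 ± 0.24 (adjusted p = 0.0105, but 0.0652 without epididymal libraries). For B cells, the immunoglobulin Ighm was at 121, 72.7, 126 and 44.96 CPM in KO, against 48.3, 9.88, 34.3 and 21.4 CPM in WT, overlapping, and rose by 1.68 ± 0.37 (adjusted p = 0.0165, lost without WT replicate 4 (adjusted p = 0.063)). No T or NK marker of 17, epithelial marker of 9, skeletal muscle marker of 14 or erythroid marker of 7 was called by edgeR, with 2, 2, 3 and 0 at an unadjusted p under 0.05. DESeq2 called 1 muscle marker higher and 1 lower, and limma-voom 1 epithelial and 1 muscle marker lower. The smallest p-values were those of Lck (0.79 ± 0.27, adjusted p = 0.119), Krt14 (-1.16 ± 0.32, adjusted p = 0.0511), Acta1 (3.18 ± 0.88, adjusted p = 0.0516) and Hbb-bt (0.62 ± 0.34, adjusted p = 0.369). Krt14 passed as lower without KO replicate 3 or 4 or WT replicate 1 (adjusted p from 0.0351 to 0.0487) and without epididymal libraries (adjusted p = 0.00803), and Acta1 as higher without KO replicate 1 (adjusted p = 0.0163). The gonadal genes Insl3 and Cyp17a1, both barely detected, rose (2.31 ± 0.56 and 3.43 ± 0.87, adjusted p = 0.0259 and 0.0337), calls lost without KO replicate 1 or 3 or WT replicate 2, 3 or 4 (adjusted p from 0.0522 to 0.0879) and without KO replicate 1, 3 or 4 or WT replicate 1, 2 or 3 (adjusted p from 0.056 to 0.103). What these cells or their RNA contributed to the called genes was not tested.

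Of the called protein-coding genes that had separated groups, a mean of at least 5 CPM and no provisional name, several of those that fell most after Nr4a1 were of varied function. Galnt6 (chromosome 15, 100691813 to 100729376) was at 2.07, 1.63, 4.86 and 2.32 CPM in KO, against 7.37, 7.49, 9.304 and 9.57 CPM in WT and Galnt15 (chromosome 14, 32028989 to 32062197) at 143, 139, 114 and 109 CPM in KO, against 277, 279, 269 and 248 CPM in WT. These glycosyltransferases of the same family, which start O-linked sugar chains, fell by 1.63 ± 0.26 and 1.08 ± 0.13 (adjusted p = 0.00123 and 7.97e-05), with the groups apart. Rasl10b, a small GTPase, fell by 1.13 ± 0.14 (adjusted p = 0.000104), Vat1l by 1.23 ± 0.26 (adjusted p = 0.0101) and Fam173b, a methyltransferase, by 0.88 ± 0.12 (adjusted p = 0.000261). Itga11, an integrin subunit that binds collagen, was at 33.9, 32.99, 32.6 and 22.4 CPM in KO, against 50.6, 62.04, 51.5 and 54.2 CPM in WT and fell by 0.84 ± 0.14 (adjusted p = 0.00161, but 0.055 without epididymal libraries). Arl4a, a small GTPase, fell by 0.91 ± 0.20 (adjusted p = 0.0165), a call lost without KO replicate 4 (adjusted p = 0.0632). Pabpc1, which binds poly(A) tails, had a large CPM gain with a small fold, 0.24 ± 0.06 (adjusted p = 0.0322, lost without KO replicate 2, 3 or 4 or WT replicate 1, 2, 3 or 4 (adjusted p from 0.0549 to 0.101)).

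Neighbours of Nr4a1 were counted, since a targeted allele can carry flanking strain DNA. Within 10 Mb of Nr4a1 on chromosome 15, 14 of 168 tested genes were called (8.33%, against 4.1% of all). Among the genes named here these were Slc4a8, 0.43 Mb away, Galnt6 at 0.525 Mb, Gpd1 at 1.529 Mb, Hoxc10 at 1.692 Mb and Ppp1r1a at 2.255 Mb. Slc4a8, a bicarbonate transporter (chromosome 15, 100761747 to 100823968), was at 19.5, 17.3, 16.7 and 13.95 CPM in KO, against 30.9, 29.6, 30.7 and 32.8 CPM in WT and fell by 0.88 ± 0.15 (adjusted p = 0.00225, but 0.0823 without epididymal libraries). For these genes an effect of the allele and an effect of linked strain DNA cannot be told apart.

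The visceral effect was set beside the subcutaneous one, from 992 calls in SAT (5.89%). Of all 16 libraries, WT SAT replicate 3 had the lowest mean correlation with its own group, 0.976, and the lowest total count, 34655519. Of the 478 genes higher in visceral KO, 199 were also higher in KO SAT (background 3.46%) and 2 were lower. Of the 212 lower, 68 were lower in SAT (background 2.43%) and 1 was higher. The depots share no libraries in these contrasts, but both contrasts use the same estimate of each gene's spread from all 16 libraries. Whether the depots came from the same mice is not stated, so the shared calls are not independent agreement. Medians of the division lists were 1.40 in VAT and 1.18 in SAT for mitotic cyclins and kinases, 1.28 and 0.90 for kinetochores, 1.47 and 1.48 for kinesins and 0.75 and 0.58 for chromosome structure. They were 0.47 and 0.22 for replication, 0.29 and 0.04 for nucleotide supply, 0.73 and 0.55 for recombination and 0.18 and 0.15 for G1 regulators. The medians had opposite signs for the lipid droplet list, at 0.33 in VAT and -0.23 in SAT, and for adipokines, at 0.26 and -0.15. Interferon-stimulated genes had a median of -0.02 in VAT and 0.55 in SAT. The glucocorticoid list had -0.49 and -0.57.

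A test of the difference itself, the KO effect in VAT minus the KO effect in SAT (the interaction), called 45 genes, 0.267%. Of these 22 were positive and 23 negative, and 5 were lipid droplet genes, 3 fatty acid genes and 4 interferon-stimulated genes. The number depended on single libraries, although without WT SAT replicate 3 it was 56. It was 149 without KO VAT replicate 3, and 7 to 12 without KO SAT replicate 4 (7), WT SAT replicate 1 (10) or WT SAT replicate 4 (12). It was 14 to 24 without WT VAT replicate 3 (14), KO VAT replicate 2 (15), WT VAT replicate 1 (16), KO VAT replicate 4 (17), KO SAT replicate 3 (17), WT VAT replicate 4 (21), KO SAT replicate 2 (21), KO SAT replicate 1 (23) or KO VAT replicate 1 (24).

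On the visceral side, Lgals12, at the levels given above in VAT, was at 5.04, 6.01, 5.700 and 6.34 CPM in KO SAT, against 6.62, 4.62, 4.31 and 6.72 CPM in WT SAT (interaction 1.703 ± 0.26, adjusted p = 0.0141). The SAT groups overlapped while the VAT groups did not. Plin1 was at 42.6, 37.5, 46.01 and 51.7 CPM in KO SAT, against 57.3, 42.7, 31.9 and 38.5 CPM in WT SAT (interaction 1.32 ± 0.24, adjusted p = 0.0292). Acsl1, Pnpla3, Fabp5 and Pcx had interactions of 1.08 ± 0.21, 1.402 ± 0.22, 1.19 ± 0.22 and 1.06 ± 0.19 (adjusted p = 0.0407, 0.0159, 0.0333 and 0.0292). Apart from that of Lgals12, these calls were lost when single libraries were left out. Of 16 fits that each left out 1 library, the call of Acsl1 was lost in 13 (adjusted p up to 0.0993), that of Fabp5 in 11 (up to 0.085), that of Plin1 in 10 (up to 0.0743), that of Pcx in 9 (up to 0.0697) and that of Pnpla3 in 1 (adjusted p = 0.0561). Without KO SAT replicate 4 all 5 were lost. Ppp1r1a, a phosphatase inhibitor (chromosome 15, 103530279 to 103538003), was at 8.67, 9.59, 6.32 and 10.5 CPM in KO, against 4.29, 3.72, 3.999 and 5.17 CPM in WT. It rose in VAT by 1.03 ± 0.17 (adjusted p = 0.0016), against -0.49 ± 0.17 in SAT (adjusted p = 0.106; interaction 1.52 ± 0.24, adjusted p = 0.02). Rgcc, a regulator of cell cycle and complement response, was at 28.5, 36.7, 23.5 and 30.7 CPM in KO, against 20.01, 20.1, 20.8 and 20.3 CPM in WT. It rose in VAT by 0.56 ± 0.14 (adjusted p = 0.0307) and fell in SAT by 0.78 ± 0.15 (adjusted p = 0.00398; interaction 1.33 ± 0.20, adjusted p = 0.0141). The VAT call of Rgcc was lost without KO replicate 2 or 4 or WT replicate 1, 2, 3 or 4 (adjusted p from 0.0695 to 0.107).

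On the subcutaneous side, the metalloprotease Adamts19 was at 9.13, 9.54, 14.2 and 12.2 CPM in KO, against 10.02, 10.96, 9.92 and 11.7 CPM in WT, overlapping, but at 3.96, 3.68, 3.08 and 4.205 CPM in KO SAT, against 0.868, 0.842, 0.734 and 1.203 CPM in WT SAT. Its interaction was -1.94 ± 0.23 (adjusted p = 0.00434). Stac2, an adaptor protein, was at 16.3, 13.3, 11.9 and 10.2 CPM in KO, against 17.95, 16.7, 12.5 and 14.7 CPM in WT and rose in SAT by 1.22 ± 0.15 (interaction -1.48 ± 0.21, adjusted p = 0.0135). The antiviral genes Ifit2, Ifih1 and Trim30a were not called in VAT (-0.32 ± 0.09, -0.20 ± 0.09 and -0.37 ± 0.12, adjusted p = 0.0559, 0.286 and 0.109). In SAT they rose by 0.59 ± 0.09, 0.62 ± 0.09 and 0.67 ± 0.12 (adjusted p = 0.000712, 0.000681 and 0.00278), with interactions of -0.91 ± 0.13, -0.82 ± 0.13 and -1.04 ± 0.17 (adjusted p = 0.0135, 0.0202 and 0.0202). Without KO VAT replicate 3, Ifit2 passed as lower in VAT (adjusted p = 0.0434), and so did Trim30a (adjusted p = 0.0185). The interactions of Adamts19, Ifit2, Stac2, Rgcc, Lgals12 and Ppp1r1a stayed called in all 16 fits that left out 1 library. That of Ifih1 was lost without KO SAT replicate 4 (adjusted p = 0.0561) or WT SAT replicate 1 (adjusted p = 0.0506). That of Trim30a was lost without KO VAT replicate 2, KO SAT replicate 4 or WT SAT replicate 1 (adjusted p from 0.0518 to 0.0614).

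**Figure D5:**
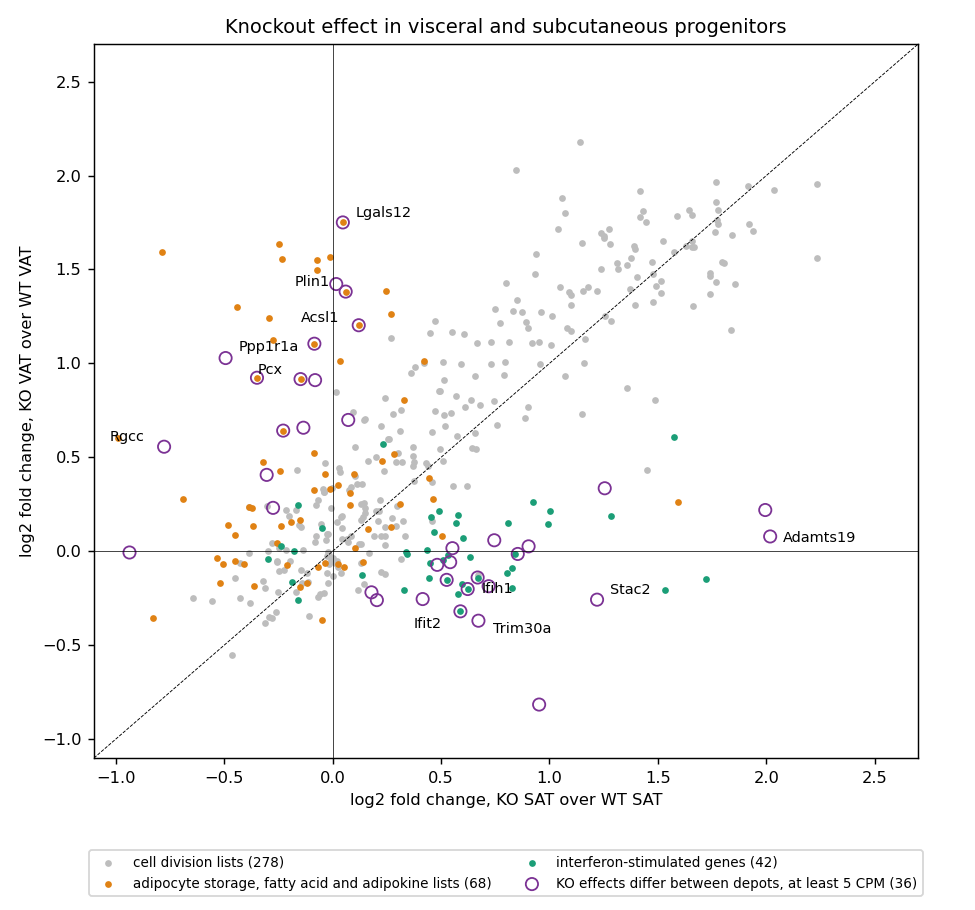
Log2 fold change, KO over WT, in VAT (vertical) against SAT (horizontal) for the division lists (278 genes, grey), adipocyte lists (68, orange) and interferon-stimulated genes (42, green), with circles around the 36 protein-coding genes averaging 5 CPM or more whose KO effects differed between depots; the dashed line marks equal change. Many division genes are raised in both depots, circled adipocyte genes such as Lgals12 and Plin1 lie above it, and Adamts19, Stac2 and Ifit2 lie below it.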

How the data were processed

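RNA of adipose progenitors was made into libraries with the NEBNext Ultra RNA kit, per the labels' protocols, and sequenced as single reads of 75 bases on an Illumina NextSeq instrument. The authors deposited a table of counts per gene, and STAR, FastQC, featureCounts, DESeq and the mm10 build are named in the submitters' processing notes. Annotation and strand setting were not stated in them, so reads of overlapping antisense genes cannot be told apart. The deposited normalized table was not used. Names shaped like dates (27 of 38720 lines) were not named. Of the lines, 35628 matched a GENCODE vM21 symbol, 1764 a RefSeq synonym and 1301 none.

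Counts of all 16 libraries were fitted with a term for each of 4 groups, after edgeR's filter on low counts, with TMM scaling and the quasi-likelihood test (edgeR 4.0.16, limma 3.58.1, DESeq2 1.42.0 and package data.table, version 1.17.8, in R 4.3.3; Python 3.11.15, pandas 2.3.3, matplotlib 3.10.9). SE is the absolute log2 fold change over the root of F. The scripts were tested on simulated data. Named genes were the 12 largest increases and decreases among called protein-coding genes with separated groups and at least 5 CPM, the 5 largest gains and losses in CPM, up to 4 called members per list with the smallest p (for a list with none, the smallest p), and 8 genes whose effects differed between depots. Fabp4, Pparg, Myc, Srebf1 and Sult1a1 were chosen after their values were seen. Some genes that meet these rules are not reported here. Members and lists were chosen with earlier results of these data known. Alternatives were RLE scaling, other filters, VAT libraries alone, DESeq2, limma-voom, a replicate block and leaving out each library.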

Additional observations from a re-analysis of the deposited data

Results flagged for a closer look

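In 150 named genes, the 4 libraries of each visceral group were checked for a library far from the other 3, and 14 of 300 group checks met Dixon's criterion, where chance alone gives about 1 in 20. In KO replicate 4, Itga11 was lowest at 22.4 CPM (others 32.6 to 33.9 CPM) and Tsc22d3 lowest at 157 CPM (others 197.9 to 198.5 CPM). In the same library Trem2 was highest at 8.75 CPM (others 4.86 to 5.47 CPM), Cnn1 at 151.0 CPM (others 50.2 to 58.6 CPM) and Acta1 at 23.5 CPM (others 0.67 to 3.97 CPM). In KO replicate 1, Cdk1 was lowest at 11.02 CPM (others 14.7 to 15.1 CPM) and Spc25 at 5.09 CPM (others 7.08 to 7.34 CPM). In KO replicate 3, Ndrg1 was highest at 60.7 CPM (others 54.2 to 54.5 CPM) and Trim30a at 22.1 CPM (others 15.6 to 16.5 CPM).

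Among WT libraries, Jun was highest in replicate 3 at 2983 CPM (others 2877 to 2894 CPM), as was Cnn1 at 49.4 CPM (others 39.2 to 40.1 CPM). Rrm1 was highest in WT replicate 1 at 43.2 CPM (others 39.5 to 40.01 CPM), Sesn2 in WT replicate 4 at 13.7 CPM (others 11.2 to 11.5 CPM), and Wnt2b was lowest in WT replicate 2 at 43.6 CPM (others 69.4 to 70.6 CPM).

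The KO effect differed between the depots, by the test of the difference (log2, VAT minus SAT), for 13 named genes. Positive differences were 1.70 for Lgals12, 1.52 for Ppp1r1a, 1.40 for Pnpla3, 1.33 for Rgcc, 1.32 for Plin1, 1.19 for Fabp5, 1.08 for Acsl1 and 1.06 for Pcx. Negative ones were -1.94 for Adamts19, -1.48 for Stac2, -1.04 for Trim30a, -0.91 for Ifit2 and -0.82 for Ifih1.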

How the results depend on the processing

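The 478 higher and 212 lower calls were 478 and 207 with RLE scaling, 421 and 169 with no filter, 302 and 127 with a mean of at least 5 CPM, 497 and 193 with VAT libraries alone, 776 and 456 with DESeq2, 542 and 243 with limma-voom, and 204 and 78 without epididymal libraries, the alternative chosen after seeing the data. Leaving out 1 library gave 327 to 473 higher and 85 to 177 lower calls. DESeq2 also called 476 of the 478 and 210 of the 212. The 45 genes whose effect differed between depots were 528 with DESeq2, and 7 to 149 with 1 library left out. Same-numbered KO and WT libraries had deviations that correlated at 0.176, -0.0471, -0.0503 and -0.16. Between depots, same-numbered VAT and SAT libraries correlated at 0.0429, -0.0399, 0.0536 and 0.044 in KO and at 0.144, 0.119, 0.113 and -0.0414 in WT. Not every pair was above 0.1, and the labels tie no libraries to the same mouse, so the numbers were not taken as pairs, although 3 WT pairs were above it. With the replicate block there were 437 higher and 174 lower calls, and the depot difference had 14 calls (11 with the replicate block within genotype). Adamts19, not called in VAT at 0.08, was at -0.0523 to 0.1669 with 1 library left out, negative without KO VAT replicate 3, and at -0.1785 without epididymal libraries. Of 132 named calls, 80 held in every fit with 1 library left out and 69 without epididymal libraries. The cause of these shifts was not tested, except that the 5 CPM filter tests fewer genes and leaving libraries out uses fewer samples. With 4 libraries a group, low genes carry wide errors.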
